A study of Mus musculus with 12 samples.

Results

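Mouse brains were digested with warm enzyme either without inhibitors (ENZ-NONE) or with inhibitors of transcription and translation (ENZ-INHIB), and myeloid cells of both groups were compared. Each group held 3 libraries from 3 mice, so the comparison covered 6 of the 12 samples of the study. Every animal was a C57BL/6J male, which is an inbred strain, taken around postnatal day 90, with the whole brain as tissue. Per the study's methods, the inhibitors were actinomycin D and triptolide, which stop transcription, and anisomycin, which stops translation; anisomycin was absent from the perfusion buffer, and all 3 agents were present during dissection and digestion. ENZ-NONE brains received none of these agents at any step. Myeloid cells that carried both CD45 and CD11b were sorted from both groups by the same gate, and transcripts were counted with a 10X droplet kit that reads 3′ ends and tags each captured molecule with a unique molecular identifier (UMI). A barcode counted as a cell with a minimum of 1000 UMIs and 500 genes and no more than 10% mitochondrial UMIs. Of the ENZ-NONE barcodes 4437 of 6415 passed, and of the ENZ-INHIB barcodes 4622 of 6263, which gives 9059 of the 18830 cells kept in the whole study. The remaining 6 brains were broken up on ice in a Dounce homogenizer without (DNC-NONE, 3 libraries) or with (DNC-INHIB, 3 libraries) the same agents. Those libraries enter below only where the inhibitor difference after digestion is set against that after cold homogenization.

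Microglia are the resident macrophages of the brain and respond quickly to injury and to signals from damaged cells. Immediate early genes are the first genes that cells transcribe after a stimulus, and they need no new protein to be switched on. Many encode transcription factors of the AP-1 family, in which FOS and JUN proteins pair, and their messenger RNAs (mRNAs) decay fast. Heat shock genes form a separate response to unfolded protein, driven by the factor HSF1, and chemokine genes of macrophages are usual targets of NF-kB and AP-1.

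The kept cells carried the markers that their label calls for. Summed UMIs of 8 microglial markers reached 32504 to 38327 CPM (UMIs of a gene per 1000000 UMIs of the library) in the 6 enzymatic libraries, and between 99.2% and 99.9% of cells held at least 2 of those UMIs. Markers of border macrophages summed to between 213 and 309 CPM. Neutrophil markers reached 515 CPM in ENZ-INHIB replicate 1 and between 1.56 and 18.3 CPM in the other 5 libraries. Monocyte markers reached 171 CPM in ENZ-NONE replicate 6, 116 CPM in ENZ-INHIB replicate 1 and at most 63.1 CPM elsewhere. The 6 libraries held 1536732 to 2729825 UMIs in kept cells, with medians of 1291 to 1572 UMIs per cell. The labels split the study into 2 batches. Of the ENZ-NONE libraries, replicates 4 and 5 belonged to batch 1 and replicate 6 to batch 2. Of the ENZ-INHIB libraries, replicate 1 belonged to batch 1 and the other two to batch 2. No pair of libraries shared more than 12 barcodes, and counts of every replicate pair differed by more than sampling noise (chi-square per degree of freedom from 1.60 to 6.50).

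A short and uneven set of genes separated the groups. UMI counts were summed per library over kept cells and tested with edgeR's quasi-likelihood test on all 12 libraries, and a gene was called at a Benjamini-Hochberg adjusted p under 0.05 with a log2 fold change beyond 0.58. Of 9884 genes tested, 37 were called higher in ENZ-NONE, which is 0.374% of those tested, and 0 were called lower. Without adjustment, 316 genes (3.2%) were higher and 200 (2.02%) lower at p under 0.05, and DESeq2's Wald test called 40 higher and 0 lower. A further 4 genes passed the adjusted p but not the fold, among them Sat1 at 0.39, Kctd12 at 0.49 and H3f3b at 0.43 log2. In all 37 called genes the lowest ENZ-NONE library lay above the highest ENZ-INHIB library. Of the genes tested, 395 (4%) showed that separation and 663 showed the reverse, with every ENZ-NONE library below every ENZ-INHIB library. Log2 fold changes of the 37 ran from 0.61 to 8.36 with a median of 2.80, against a median of -0.0033 over all genes tested. The highest value belongs to Hist1h1d, which was at 0 in ENZ-INHIB, so it depends on the fit's prior count and is no bound. The plot of fold change against level shows that the called genes ran from scarce ones such as Hist1h2bg to those with means over 2000 CPM in ENZ-NONE, such as Jund and Jun.

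**Figure D1:**
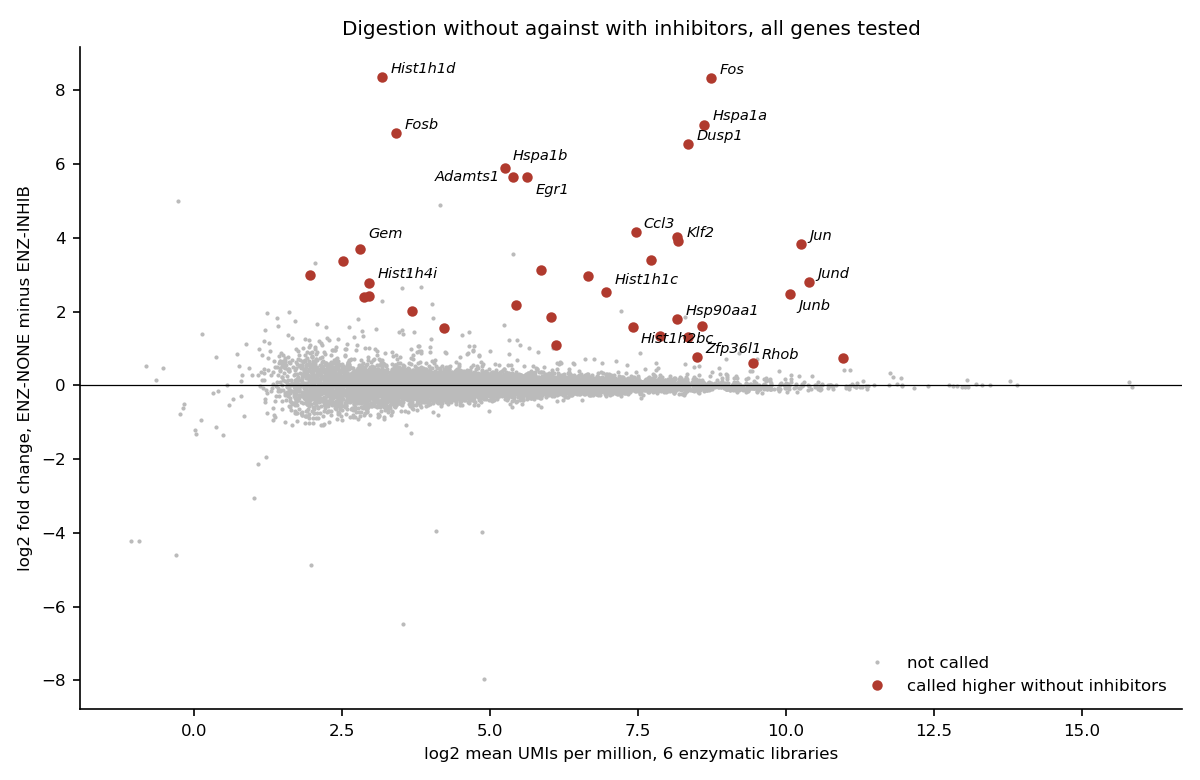
Log2 fold change of ENZ-NONE against ENZ-INHIB (vertical axis) by the log2 mean level in the 6 enzymatic libraries in CPM (horizontal axis) for the 9884 genes tested; red points are the 37 genes called higher and grey points all others. The called genes reach 8.36 on the log2 scale, and the grey points far below 0 include the neutrophil genes Ngp, Camp and S100a8, which were high in 1 ENZ-INHIB library.

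Most AP-1 subunits rose. Of 12 listed, 10 were tested and 6 were called higher, with a median log2 fold change of 2.65 over the 10. Fos, which encodes the founding partner of the dimer, measured 411, 392 and 1753 CPM in ENZ-NONE replicates 4, 5 and 6 and 3.77, 4.15 and 0.39 CPM in ENZ-INHIB replicates 1, 2 and 3. The groups lay far apart, and replicate 6 stood 4.37-fold above the mean of replicates 4 and 5. The log2 fold change was 8.34 ± 0.83 (SE; edgeR adjusted p = 9.13e-06). Fosb, a close relative, was near 0 with inhibitors, at 0, 0 and 0.39 CPM, and measured 10.1, 18.9 and 34.8 CPM without them.

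Jun, the other partner of the classical dimer, was not silent with inhibitors. Its levels were 206, 153 and 138 CPM in ENZ-INHIB and 1792, 1868 and 3143 CPM in ENZ-NONE, and it rose by 3.83 ± 0.38 log2 (edgeR adjusted p = 7.86e-06). Junb and Jund encode its relatives and behaved alike, from group means of 333 ± 61.7 and 347 ± 54.9 CPM (SD, n = 3) with inhibitors to 1809.5 ± 688 and 2338 ± 513 CPM without. In fold terms these 3 subunits moved less than Fos, but in absolute level each exceeded it in every ENZ-NONE library. Atf3, a stress-induced partner that can repress AP-1 sites, measured 53.3, 51.4 and 206 CPM against 14, 10.2 and 14.4 CPM (log2 3.13 ± 0.48, edgeR adjusted p = 0.00186). Fosl2, Batf, Batf3 and Mafk were tested and not called.

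Other immediate early genes followed, with 5 of 9 tested members called higher and a median log2 fold change of 1.61. Egr1, a zinc finger factor, measured 70.2, 60.5 and 159.7 CPM without inhibitors and 2.69, 1.51 and 1.95 CPM with them (log2 5.65 ± 0.54, edgeR adjusted p = 5.00e-06). Its relative Egr2 was scarce, at 13.8, 5.86 and 11.4 against 2.15, 0.377 and 0.78 CPM. Ier2 and Ier5, small nuclear proteins of immediate early type, rose by 2.96 ± 0.43 and 1.31 ± 0.24 log2, and Btg2, an antiproliferative gene that also takes part in mRNA decay, by 1.61 ± 0.23. None of the groups overlapped for these 5 genes. The call of Ier5 was lost without any 1 of the ENZ-INHIB libraries (edgeR adjusted p up to 0.108), and that of Egr2 when all deposited barcodes were summed.

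Dusp1, a phosphatase that switches off MAP kinases, was the single called member of its list of 5 tested. Levels were 354, 376 and 1203 CPM in ENZ-NONE and 10.8, 7.16 and 4.29 CPM in ENZ-INHIB, a rise of 6.55 ± 0.54 log2 (edgeR adjusted p = 8.10e-07). The related Dusp6 was well expressed in both groups, at 475, 558 and 628 against 454, 431 and 513 CPM, and was not called (edgeR adjusted p = 0.802).

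**Figure D2:**
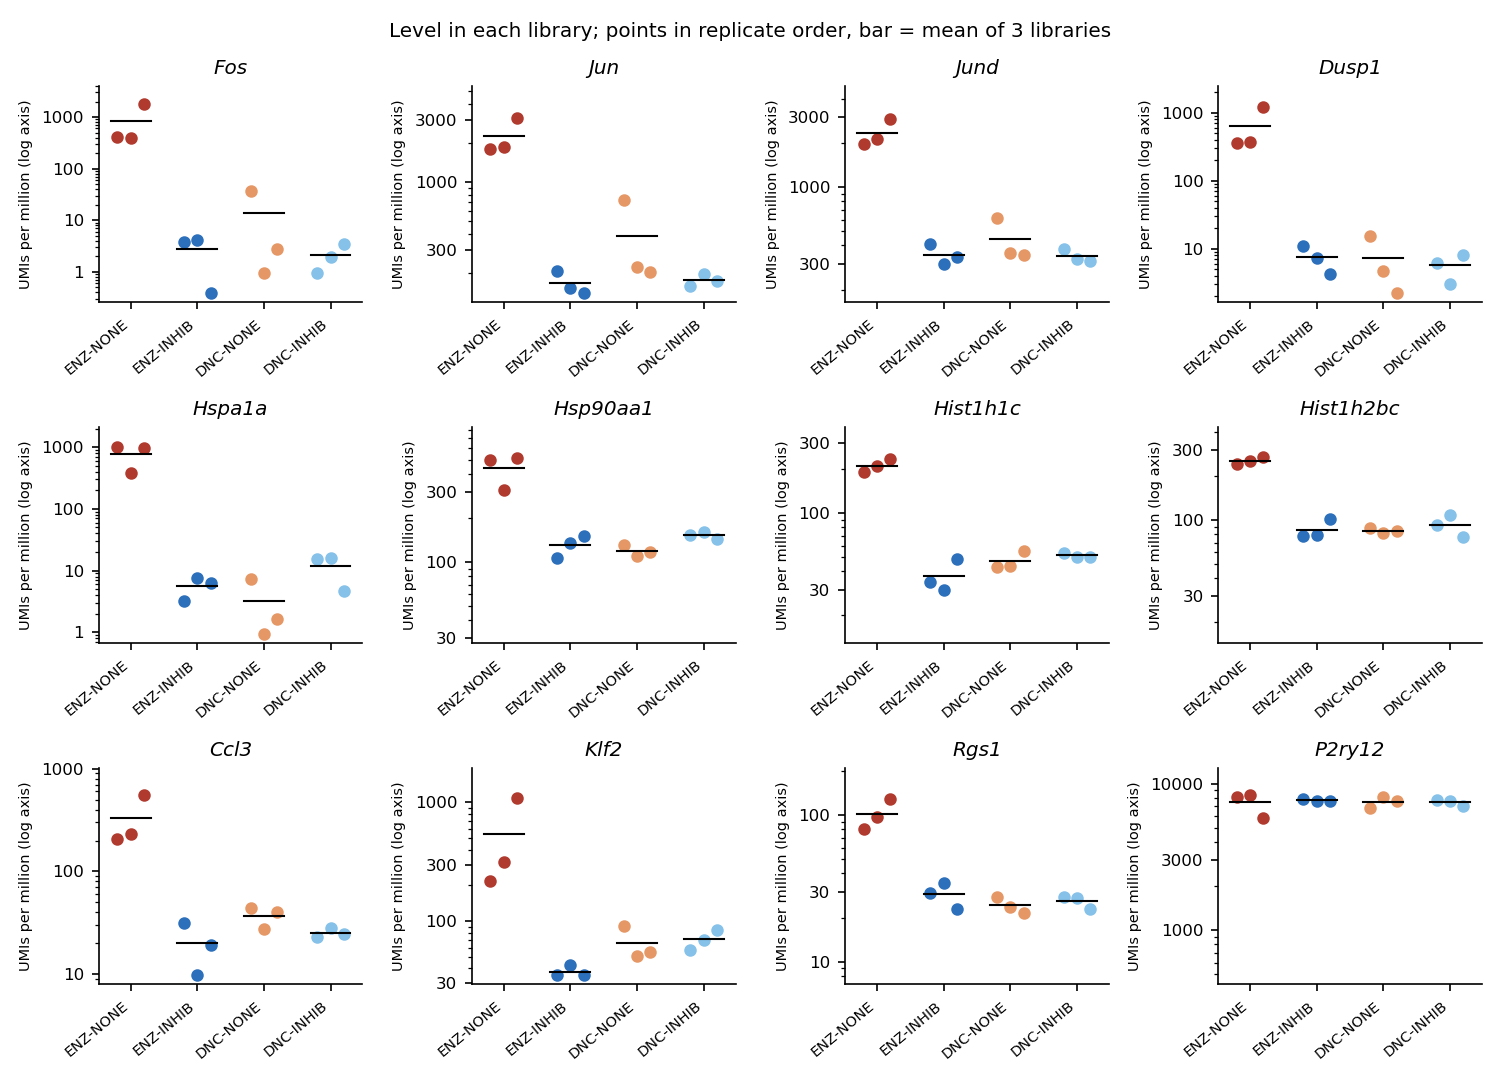
Level of 12 genes in CPM (log axis) in each of the 12 libraries, grouped as ENZ-NONE, ENZ-INHIB, DNC-NONE and DNC-INHIB; points are libraries in order of replicate number and bars are means of 3. For every gene except P2ry12 the 3 ENZ-NONE points lie above the 3 ENZ-INHIB points, and Fos, Dusp1, Ccl3 and Klf2 are highest in ENZ-NONE replicate 6.

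Few heat shock genes passed the test. Of 19 tested chaperones and cofactors, 3 were called higher and 0 lower, and the list median was 0.20 log2. Most of the list leaned the same way, with 17 of 19 above 0. At unadjusted p under 0.05, 6 of 19 were higher and 0 lower, against 3.2% and 2.02% of all genes tested. Hspa1a, the classical inducible HSP70 gene, measured 999, 381 and 960.5 CPM in ENZ-NONE and 3.23, 7.54 and 6.24 CPM in ENZ-INHIB, and rose by 7.07 ± 0.44 log2 (edgeR adjusted p = 3.04e-08). Replicate 5 held less of it than the other two, at 0.381 of the level in replicate 4. Hspa1b, its near-identical neighbour, rose by 5.89 ± 0.39 log2 from 0, 1.88 and 1.56 to 82.2, 47.5 and 94.5 CPM. Reads of these paralogs can be split or lost between the copies, so the level of each is uncertain. Hsp90aa1, the inducible HSP90 gene, rose by 1.79 ± 0.17 log2, from 107, 135 and 149.7 to 499.5, 310.4 and 515 CPM.

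The constitutive partner Hsp90ab1 measured 939.8, 756 and 1009 CPM against 459.5, 545 and 667 CPM and missed the threshold (log2 0.73 ± 0.16, edgeR adjusted p = 0.0635). The integrated stress and unfolded protein response list had 0 of 13 tested members called by edgeR, against 0.374% of all genes tested. At unadjusted p under 0.05, 5 of 13 were higher and 0 lower, against 3.2% and 2.02% of all genes. Its leading member was Ppp1r15a, which encodes a regulatory subunit of the phosphatase that reverses the translation block, at log2 1.07 ± 0.23 (edgeR adjusted p = 0.0548). Hspa5, the chaperone of the endoplasmic reticulum, was at 0.28 ± 0.11.

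Promoter sequence was available in RefSeq (build GRCm38.p6) for 20 of the 37 called genes. The 250 bases upstream of the start of 4 of them are shown, since these genes lead the AP-1, phosphatase and heat shock groups, and the motif named beside each sequence is in capitals, on whichever strand it matched.
Fos, chr12:85473640-85473889, plus strand, with TATAAA in capitals: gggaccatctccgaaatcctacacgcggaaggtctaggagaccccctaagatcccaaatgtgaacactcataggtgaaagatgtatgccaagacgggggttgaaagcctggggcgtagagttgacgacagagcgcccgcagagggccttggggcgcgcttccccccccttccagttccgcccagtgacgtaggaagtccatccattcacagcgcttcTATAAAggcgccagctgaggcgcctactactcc
Jun, chr4:95052223-95052472, minus strand, with CCAAT and GAANNTTC in capitals: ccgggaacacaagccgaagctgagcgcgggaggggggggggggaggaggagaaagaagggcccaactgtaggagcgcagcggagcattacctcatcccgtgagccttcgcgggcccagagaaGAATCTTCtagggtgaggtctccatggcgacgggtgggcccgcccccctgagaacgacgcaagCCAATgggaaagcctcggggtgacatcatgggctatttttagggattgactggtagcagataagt
Dusp1, chr17:26508473-26508722, minus strand, with TGACGTCA in capitals: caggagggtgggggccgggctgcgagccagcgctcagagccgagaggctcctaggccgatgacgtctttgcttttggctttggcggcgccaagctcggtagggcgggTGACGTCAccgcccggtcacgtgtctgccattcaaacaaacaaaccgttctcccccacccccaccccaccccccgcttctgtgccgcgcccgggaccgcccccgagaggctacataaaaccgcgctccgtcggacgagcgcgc
Hspa1a, chr17:34972157-34972406, minus strand, with CCAAT and GAANNTTC in capitals: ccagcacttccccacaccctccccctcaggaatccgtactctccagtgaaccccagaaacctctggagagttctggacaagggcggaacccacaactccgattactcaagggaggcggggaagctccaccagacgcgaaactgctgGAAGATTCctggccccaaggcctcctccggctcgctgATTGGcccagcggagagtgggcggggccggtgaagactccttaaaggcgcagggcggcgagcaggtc
In Fos, the TATAAA match began 33 bases before the start. The TGACGTCA match of Dusp1, the cyclic AMP response element, began 143 bases before it. The pair of inverted heat shock repeats, GAANNTTC, lay 104 bases upstream in Hspa1a and 128 in Jun, and the CCAAT match 67 and 65 bases upstream. Matches to the NF-kB site, 214 bases upstream in Fos and 133 in Hspa1a, are left in lower case. The same 250 bases of Hspa1b matched those of Hspa1a at 247 positions. Windows here run from 250 bases before to 50 after a start. Shares are given for the 7816 tested genes with a window, which count genes as the 20 are counted, and for all 32851 RefSeq windows, where a gene may have several. GAANNTTC was found for 4 of the 20 genes (Hspa1a, Hspa1b, Jun, Nfkbid), for 7.17% of tested genes and in 7.86% of all windows. Hspa1a and Hspa1b, with nearly the same upstream sequence, both count here and among the genes with an NF-kB site. A separate pattern for the heat shock element was found for 0 of 20, for 0.627% of tested genes and in 0.603% of windows. Elements that depart from the searched letters are not counted, so this does not show that any of the 20 lacks one. TGACGTCA was found for 3 of 20 (Btg2, Dusp1, Nfkbid), for 3.89% of tested genes and in 1.79% of windows. TGANTCA, the AP-1 site, was found for 1 of 20, for 5.604% and in 7.81%. The figures for CCAAT were 11 of 20, 43.1% and 37.4%, and those for TATAAA 4 of 20, 8.14% and 13.6%. The NF-kB site was found for 6 of 20, for 12% of tested genes and in 8.46% of windows, and the CArG box, the site of serum response factor, for 2 of 20, for 1.48% and in 1.63%. These are counts of letters in short windows.

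Histone genes of the clusters rose in part. The linker histone list had 3 of 4 tested members called higher and the core histones of the clusters 4 of 13, with medians of 2.46 and 1.59 log2. Hist1h1c, which encodes linker histone H1.2, had the smallest p of all genes tested. Its levels were 189.6, 210.2 and 233 CPM in ENZ-NONE and 33.9, 29.8 and 48.3 CPM in ENZ-INHIB, a rise of 2.53 ± 0.15 log2 (edgeR adjusted p = 2.90e-08), and the ENZ-NONE libraries differed little among themselves. Hist1h1d, another linker histone, was at 0 UMIs in all 3 ENZ-INHIB libraries and at 11, 22.8 and 20.5 CPM in ENZ-NONE. Against a floor of 3 counts over the group, this was at least 42.1-fold higher. Hist1h1e rose from 1.08, 2.64 and 3.12 to 7.35, 13.7 and 16.1 CPM, and its locus overlaps Hist1h2be on the same strand. Its call was lost in 6 of the 12 fits that left out 1 library (ENZ-NONE replicate 5 or 6, ENZ-INHIB replicate 1, 2 or 3, DNC-INHIB replicate 6; edgeR adjusted p up to 0.238).

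Among core histones, Hist1h2bc measured 242, 251 and 269.6 against 77, 79.2 and 101 CPM (log2 1.59 ± 0.13, edgeR adjusted p = 8.10e-07). Hist1h4i, Hist1h2bg and Hist2h2aa1 were present at under 25 CPM in each library and rose by 2.79 ± 0.33, 3.01 ± 0.58 and 2.42 ± 0.47 log2. The calls of Hist1h2bg and Hist2h2aa1 were lost without ENZ-NONE replicate 6 and without ENZ-INHIB replicate 1 or 3, for Hist1h2bg also without ENZ-INHIB replicate 2 (edgeR adjusted p up to 0.259 and 0.264). Histone genes within a cluster are similar in sequence, so the level of each single one is uncertain. Replacement histones, most of which are made outside replication and from genes with introns, gave 0 called of 7 by edgeR. At unadjusted p under 0.05, 1 of 7 was higher and 0 lower, against 3.2% and 2.02% of all genes tested. H3f3b, the one that passed the adjusted p, was at 2318, 2289 and 2295 against 1969, 1599 and 1685 CPM, a log2 fold change of 0.43 ± 0.09.

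Of 10 tested chemokines, 2 were called higher. Ccl3 and Ccl4, the inflammatory proteins that attract monocytes, sit next to each other on chromosome 11. Ccl3 measured 207, 234 and 553 CPM against 31.2, 9.8 and 19.1 CPM (log2 4.17 ± 0.37, edgeR adjusted p = 2.39e-06), and Ccl4 309, 238 and 1058 against 27.5, 42.6 and 32 CPM (log2 4.02 ± 0.48, edgeR adjusted p = 9.32e-05). Ccl2 and Ccl7, attractants for monocytes, narrowly missed the threshold (edgeR adjusted p = 0.0517 and 0.0521) at 40.9, 20.8 and 167 and 15.2, 0.651 and 87.6 CPM in ENZ-NONE against 8.08, 9.8 and 3.51 and 2.15, 1.88 and 0 CPM. For both, replicate 6 carried most of the signal, and for Ccl7 the groups overlapped.

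Cytokines gave 0 called of 8 tested by edgeR, against 0.374% of all genes tested. At unadjusted p under 0.05, 3 of 8 were higher and 0 lower, against 3.2% and 2.02% of all genes. Il1b, a central inflammatory cytokine, was at 7.81, 7.16 and 58.2 CPM against 4.31, 4.52 and 3.9 CPM (log2 2.68 ± 0.65, edgeR adjusted p = 0.113). Here too replicate 6 stood apart. Socs3, a feedback inhibitor of cytokine signalling, showed the same pattern, with 78.5, 119 and 985 against 60.9, 37.7 and 23.8 CPM (edgeR adjusted p = 0.133).

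In the NF-kB list, 1 of 14 tested members was called higher, and the median was 0.18 log2. Nfkbid, an inhibitor-like nuclear cofactor, measured 23.4, 16.9 and 42.1 against 11.3, 8.67 and 10.1 CPM (log2 1.57 ± 0.30, edgeR adjusted p = 0.0197). This call was lost without ENZ-NONE replicate 6 or any 1 of the ENZ-INHIB libraries (edgeR adjusted p up to 0.214), in sums thinned to equal depth and in a fit of the 6 enzymatic libraries. Nfkbiz, a related cofactor, was at 13.3, 16.9 and 44.3 against 10.2, 4.52 and 8.58 CPM and was not called (edgeR adjusted p = 0.0683). Nfkbia, the inhibitor that NF-kB itself induces, was at 161, 143 and 254 against 142, 161 and 91.2 CPM, and its groups overlapped (edgeR adjusted p = 0.889).

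Factors that shorten the life of mRNAs rose in part, with 3 of 8 tested members called. Zfp36, which encodes tristetraprolin and directs the decay of AU-rich messages, measured 249.8, 261 and 633 against 38.2, 33.5 and 40.9 CPM (log2 3.40 ± 0.35, edgeR adjusted p = 1.09e-05). Its relative Zfp36l1 rose by 0.78 ± 0.17 log2 from a higher base of 282, 280.0 and 246 CPM, and Btg2, given above, is the other called member. The edgeR adjusted p of Zfp36l1 was 0.0466, and its call was lost in 7 of the 12 fits that left out 1 library (ENZ-NONE replicate 4 or 6, ENZ-INHIB replicate 1, 2 or 3, DNC-INHIB replicate 5 or 6; adjusted p up to 0.282) and in sums thinned to equal depth. Btg1 was at log2 0.72 ± 0.22 (edgeR adjusted p = 0.413).

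Kruppel-like factors had 2 of 7 tested members called. Klf2, a factor that restrains inflammatory genes in macrophages, measured 217, 313 and 1096 against 35, 42.6 and 35.1 CPM (log2 3.91 ± 0.47, edgeR adjusted p = 9.32e-05). Klf6 rose by 1.33 ± 0.25 log2, a call lost without any 1 of the ENZ-INHIB libraries (edgeR adjusted p up to 0.14), and Klf4 was at 2.21 ± 0.50 (edgeR adjusted p = 0.0743). Rgs1, which limits signalling from chemokine receptors, was the single called member of 7 tested Rgs genes, at 80.3, 97 and 128 against 29.6, 34.3 and 23 CPM (log2 1.86 ± 0.18).

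The last called genes described here lie at the cell surface, around the cytoskeleton or in the nucleus. Adamts1, a secreted protease, measured 37.2, 48.2 and 162 against 2.15, 1.88 and 1.17 CPM (log2 5.66 ± 0.80, edgeR adjusted p = 6.95e-04). Gem and Rhob encode small GTPases and rose by 3.71 ± 0.54 and 0.61 ± 0.10 log2, the second from 527, 584 and 562 CPM. Neat1, the long non-coding RNA that builds paraspeckles, measured 68.4, 74.8 and 137 against 52.3, 43.7 and 41.7 CPM. Gm26532, a long intergenic non-coding RNA at chr8:84208920-84209609 (GRCm38, plus strand) whose span holds the microRNA gene Mir24-2, measured 37.6, 50.1 and 122 against 24.2, 11.7 and 15.2 CPM (log2 2.18 ± 0.37, edgeR adjusted p = 0.00555). Gm26532 was in none of the gene lists. Calls were lost for Neat1 without ENZ-NONE replicate 6 or any 1 of the ENZ-INHIB libraries (edgeR adjusted p up to 0.199), for Gm26532 without ENZ-INHIB replicate 2 or 3 (0.0862) and for Rhob without ENZ-NONE replicate 6 or ENZ-INHIB replicate 1 (log2 down to 0.50, under the fold threshold).

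**Figure D3:**
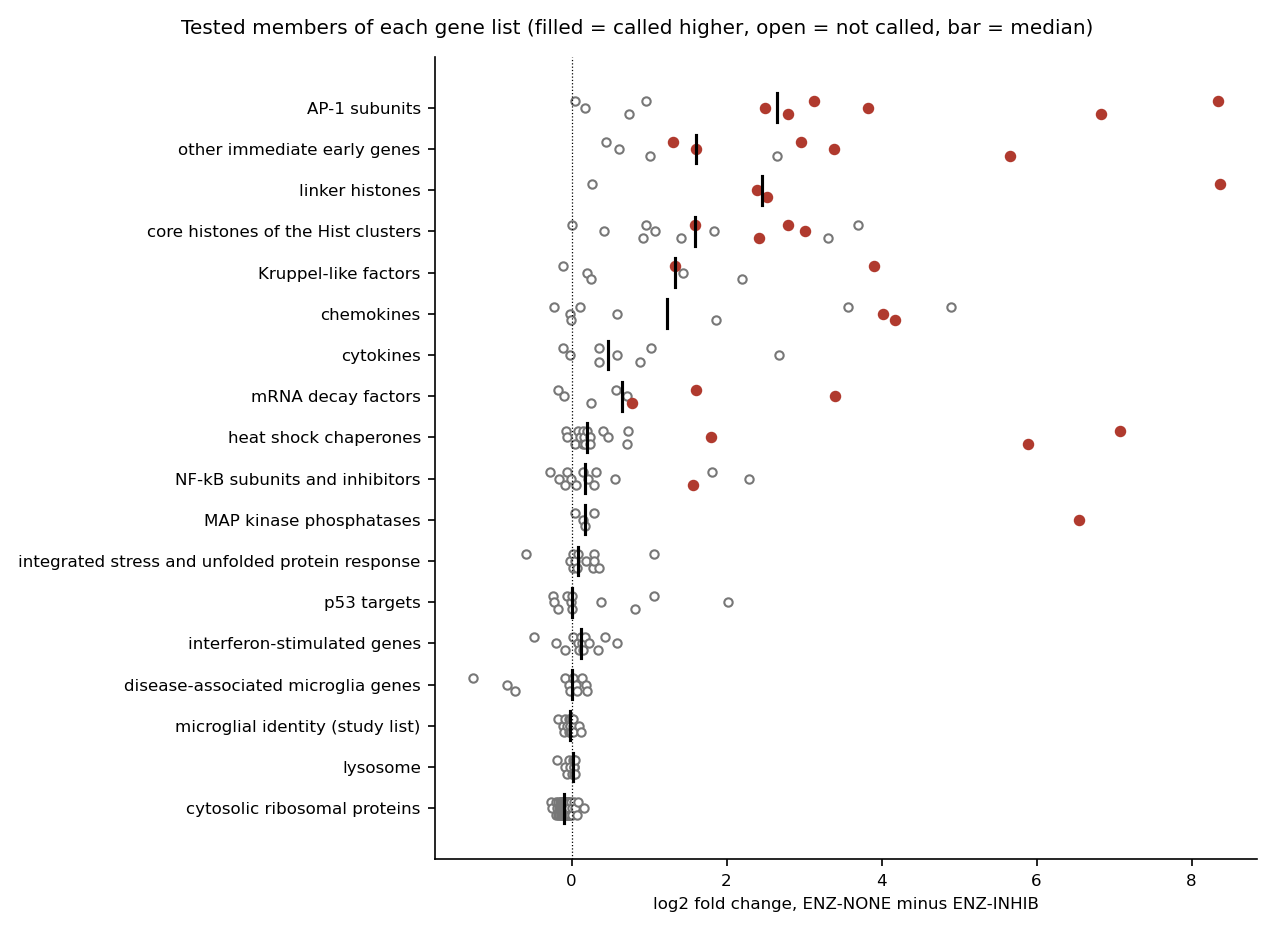
Log2 fold change of ENZ-NONE against ENZ-INHIB (horizontal axis) for the tested members of 18 gene lists (rows); filled red points were called higher, open points were not called, and black bars are list medians. AP-1 subunits and linker histones have the highest medians, 2.65 and 2.46, while microglial identity genes, lysosomal genes and ribosomal proteins cluster at 0.

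No gene of the microglial identity list passed the test. In the identity list of 18 genes, 0 were called by edgeR and 0 passed an unadjusted p under 0.05, and fold changes ran from -0.17 to 0.13 log2. P2ry12, the microglial ADP receptor, measured 8168, 8381 and 5825 against 7913, 7614 and 7610.4 CPM (log2 -0.02 ± 0.10), Tmem119 4189, 4176 and 3405 against 3904, 4002 and 4324 CPM and the fractalkine receptor gene Cx3cr1 2486, 2616 and 2019 against 2575, 2372 and 2507 CPM. Each of these 3 was lowest in ENZ-NONE replicate 6, and without that library their fold changes took the other sign, at 0.12, 0.049 and 0.052 log2. Actb, the usual reference gene, was at log2 0.11 ± 0.12. Microglial transcription factors, a separate list, gave 0 of 12 called by edgeR, with 10 above 0. At unadjusted p under 0.05, 3 of those 12 were higher and 0 lower, against 3.2% and 2.02% of all genes tested.

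Lists of disease-associated microglia genes (12 tested), interferon-stimulated genes (14), MHC genes (8), lysosomal genes (13) and ribosomal proteins (80) gave 0 calls by edgeR, with 1, 0, 0, 1 and 0 members at unadjusted p under 0.05. The p53 targets gave 0 of 11 called, with 4 higher and 0 lower at unadjusted p under 0.05. Over all genes tested 0.374% were called, and 3.2% were higher and 2.02% lower at unadjusted p under 0.05. With so low a share called, 0 calls in a short list says little about it. Gadd45g and Pmaip1, stress and apoptosis genes, led that list at 2.02 ± 0.54 and 1.07 ± 0.26 log2. Cebpb, a myeloid factor, was at 548, 446 and 1260.5 against 456, 432 and 383 CPM and Txnip, which responds to glucose and glucocorticoids, at 235, 236 and 330.4 against 173, 181 and 184 CPM, and neither was called (edgeR adjusted p = 0.784 and 0.0548). Lists that the study itself drew up had most members called. Of 19 genes taken from other mice, 17 were tested and 15 called, with Socs3 and Hist1h2ac as the exceptions. In those mice the study also compared digestion without and with inhibitors, but in unsorted cells of all brain cell types. Of 25 genes that the study chose on these same mice, 23 were called, which is not independent evidence.

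Nothing passed the threshold in the other direction. The 5 genes with the smallest p among those lower in ENZ-NONE were Stag2 (log2 -0.52 ± 0.11), a cohesin subunit, Ube4b (-0.81 ± 0.20), a ubiquitin ligase, Ppp2r5e (-0.54 ± 0.13), a subunit of phosphatase 2A, Kif3a (-1.08 ± 0.28), a kinesin motor, and Rrnad1 (-0.41 ± 0.11). Their edgeR adjusted p ran from 0.0579 to 0.212. For Stag2 the groups did not overlap, at 47.7, 48.8 and 41 against 68.4, 68.2 and 63.5 CPM. The same held in this direction for 663 of the 9884 genes tested. The lowest fitted fold changes belonged to neutrophil genes such as Ngp, at 0.459, 0 and 0 CPM against 179, 0.377 and 0 CPM, which rested on ENZ-INHIB replicate 1 alone (edgeR adjusted p = 0.94).

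Called genes shared features that the comparison did not use. Their median length in the GRCm38 annotation was 3951 bases, against 22753 bases over all genes tested, and 21 of 37 were shorter than 5000 bases, against 11.8% of all. Genes with a single exon in every annotated transcript numbered 15 of 37, against 2.59%. Among these 15 were Jun, Junb, Jund, Ier2, Ier5, Hspa1a, Hspa1b and 6 histone genes. The AU-rich heptamer TATTTAT, a mark of unstable messages, occurred in the 3′ untranslated region of 18 of 35 called genes with one, against 29.98% of all. Per 1000 bases the called genes held 0.78 copies against 0.28. Called genes also had a higher median level, 124 CPM over both groups against 28.1. Unlike the features above, this level is not separate from the comparison. It includes the ENZ-NONE values by which the genes were called.

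The difference was spread over many cells and also over the RNA per cell. To compare cells at one depth, each was thinned to 1000 UMIs. A Fos UMI was then found in 13.3, 15.7 and 38.4% of cells in the ENZ-NONE libraries and in 0.221, 0.239 and 0.063% in the ENZ-INHIB libraries, a difference of means of 22.3 percentage points (exact permutation test, two-sided, p = 0.1, the smallest that 3 against 3 allows). Exact 95% binomial intervals ran from 11.7% to 15.1%, 13.6% to 18.0% and 36.2% to 40.8% in ENZ-NONE and reached at most 0.643% in ENZ-INHIB, and they cover counting error only. For Hspa1a the shares were 36.3, 19.3 and 34.7% and 0.147, 0.836 and 0.63%, a difference of 29.6 points (exact permutation test, two-sided, p = 0.1). Without thinning the Fos shares were 15, 16.7 and 42.4% against 0.441, 0.478 and 0.063%.

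Nearly all cells carried microglial markers, so no cell type that should lack Fos was numerous enough to give a background of free RNA. The ENZ-INHIB shares cannot stand in for that background, because those libraries held at most 4.15 CPM of Fos in all. How much free Fos RNA reached ENZ-NONE cells was not measured. A cell with Fos held on average 2.97, 2.41 and 4.35 UMIs of it in ENZ-NONE and 1 in each ENZ-INHIB library, where this rested on 3, 4 and 1 cells. Without thinning, 6, 8 and 1 ENZ-INHIB cells held Fos, with 1.17, 1.38 and 1 UMIs each on average. For Jun the shares of cells were 50.8, 53 and 70.1% against 16.6, 13 and 12.5%, with 3.5, 3.52 and 4.48 against 1.17, 1.12 and 1.14 UMIs per positive cell. P2ry12 was found in 98.4, 97.9 and 95.8% and 97.4, 98 and 98% of cells.

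Cells often carried several programmes at once. Among 4 programmes (Fos, Jun or Egr1; Hspa1a or Hspa1b; Ccl3 or Ccl4; Dusp1), 35.9%, 30.5% and 56.6% of cells in ENZ-NONE replicates 4, 5 and 6 held at least 2, against at most 0.81% in any ENZ-INHIB library. Cells with none made up 33.2%, 33.2% and 17.3% in ENZ-NONE and 79.9%, 84.3% and 84.8% in ENZ-INHIB. Over 15 pairs drawn from these programmes, Hist1h1c and Rgs1 in the 3 ENZ-NONE libraries, the share of cells holding both was 1.01 to 1.94 times the product of the single shares, with a median of 1.33. With P2ry12 as partner the same ratio was 0.94 to 1.02. Because 95.8% to 98.4% of the ENZ-NONE cells held P2ry12, that ratio had little room to rise above 1. It is therefore no control for the other pairs. These ratios are descriptions over cells of the same libraries at equal depth.

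The 3 ENZ-NONE libraries differed in which genes they raised most. Fos, Klf2, Atf3, Ccl4, Adamts1, Dusp1 and Ier2 were 4.37, 4.14, 3.94, 3.87, 3.79, 3.3 and 3.14 times as high in replicate 6 as in the mean of replicates 4 and 5. Of 36 called genes with at least 50 UMIs in ENZ-NONE, 22 exceeded 1.5 times, whereas 3.78% of the 8359 genes tested with as many UMIs did. Histones differed among themselves, with Hist1h1c, Hist1h2bc, Hist1h4i and Hist1h1d at 1.17, 1.09, 1.17 and 1.21 times, and Hist1h1e and Hist2h2aa1 at 1.53 and 2.21 times. Between the other two libraries, 6 of the 36 genes in replicate 5 stood below 0.75 of the level in replicate 4, as did 8.33% of all genes with as many UMIs. These were Gem at 0.363, Hspa1a at 0.381, Egr2 at 0.425, Hspa1b at 0.578, Hsp90aa1 at 0.621 and Nfkbid at 0.723. Hist1h1d and Hist1h1e were 2.07 and 1.86 times as high in replicate 5 as in replicate 4.

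Replicate 6 was the ENZ-NONE library of batch 2 and the one with most monocyte marker UMIs, and the part of either in its higher levels was not tested. In cells without markers of other cell types, Fos was found in 12.5, 14.4 and 38.6% in the 3 ENZ-NONE libraries. For all 37 called genes every ENZ-NONE library lay above every ENZ-INHIB library. Each was therefore also higher within batch 1 (2 libraries against 1) and batch 2 (1 against 2), which adds no evidence. Median log2 ratios over the 37 were 1.92 in batch 1 and 3.09 in batch 2 on the log2(CPM + 1) scale. The ratio was larger in batch 2 for 31 of the 37. For Fos the ratios were 6.40 and 9.07, for Ccl3 2.78 and 5.16, for Hspa1a 7.35 and 6.93, and for Hist1h1c 2.52 and 2.55.

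**Figure D4:**
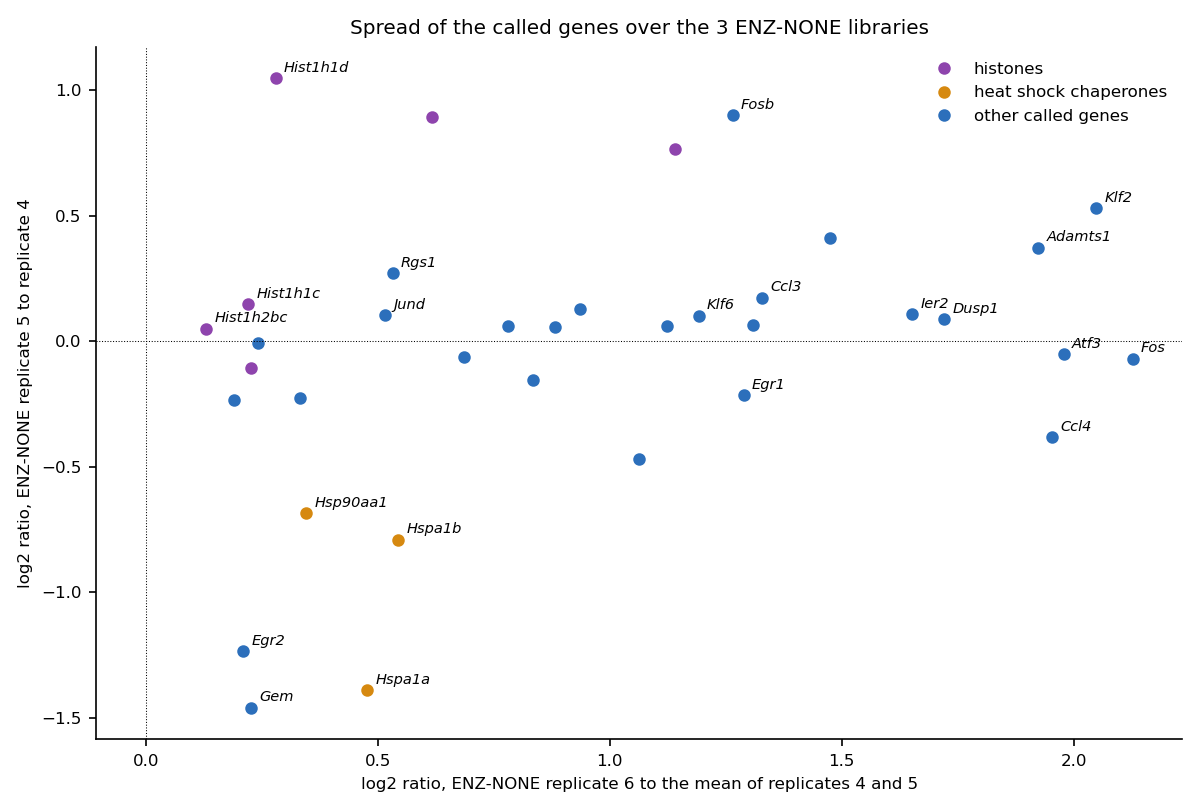
Each point is 1 of the 36 called genes with at least 50 UMIs in ENZ-NONE; the horizontal axis is the log2 ratio of ENZ-NONE replicate 6 to the mean of replicates 4 and 5, and the vertical axis the log2 ratio of replicate 5 to replicate 4. All 36 lie right of 0, Fos, Klf2, Atf3 and Ccl4 farthest, while Gem, Hspa1a and Egr2 lie lowest on the vertical axis, at ratios of 0.363, 0.381 and 0.425.

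After cold homogenization no gene passed the test. In DNC-NONE against DNC-INHIB, 0 of 9884 genes were called by edgeR, with 254 higher and 213 lower at unadjusted p under 0.05. The 37 genes had log2 fold changes from -1.49 to 5.19 there, with a median of 0.19. Fos measured 37.2, 0.941 and 2.78 CPM in DNC-NONE and 0.95, 1.9 and 3.4 CPM in DNC-INHIB, with DNC-NONE replicate 1 apart from the rest, and Jun was at 726, 221 and 203 against 157, 197 and 172 CPM. Hspa1a was at 7.2, 0.941 and 1.67 against 15.2, 16 and 4.64 CPM. The highest of these Dounce values stayed below the lowest ENZ-NONE value of each gene.

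The difference between these inhibitor effects was tested in the same fit. It was called for 17 genes (0.172% of those tested), all with a larger effect after digestion, and 16 of the 17 belong to the 37 above. The test contains the same enzymatic difference that selected the 37, so this overlap is not independent evidence. Hist1h1c differed by 2.65 ± 0.22 log2 (edgeR adjusted p = 8.42e-06), Hspa1a by 8.56 ± 0.83 (3.37e-05), Hist1h2bc by 1.72 ± 0.19 (1.35e-04), Hsp90aa1 by 2.15 ± 0.24 (1.35e-04) and Jund by 2.41 ± 0.27 (1.35e-04). The gene outside the 37 was Hsp90ab1, at 1.21 ± 0.23 (0.0359). Fos and Egr1 were not called here (edgeR adjusted p = 1 and 0.957, unadjusted 0.0214 and 0.00425), with differences of 5.44 ± 2.16 and 4.11 ± 1.25 log2, and their effects after cold homogenization had wide errors, 2.90 ± 1.20 and 1.54 ± 0.85. The count of 17 fell to between 6 and 10 without DNC-INHIB replicate 5, ENZ-INHIB replicate 2 or 3, or DNC-NONE replicate 2 or 3.

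**Figure D5:**
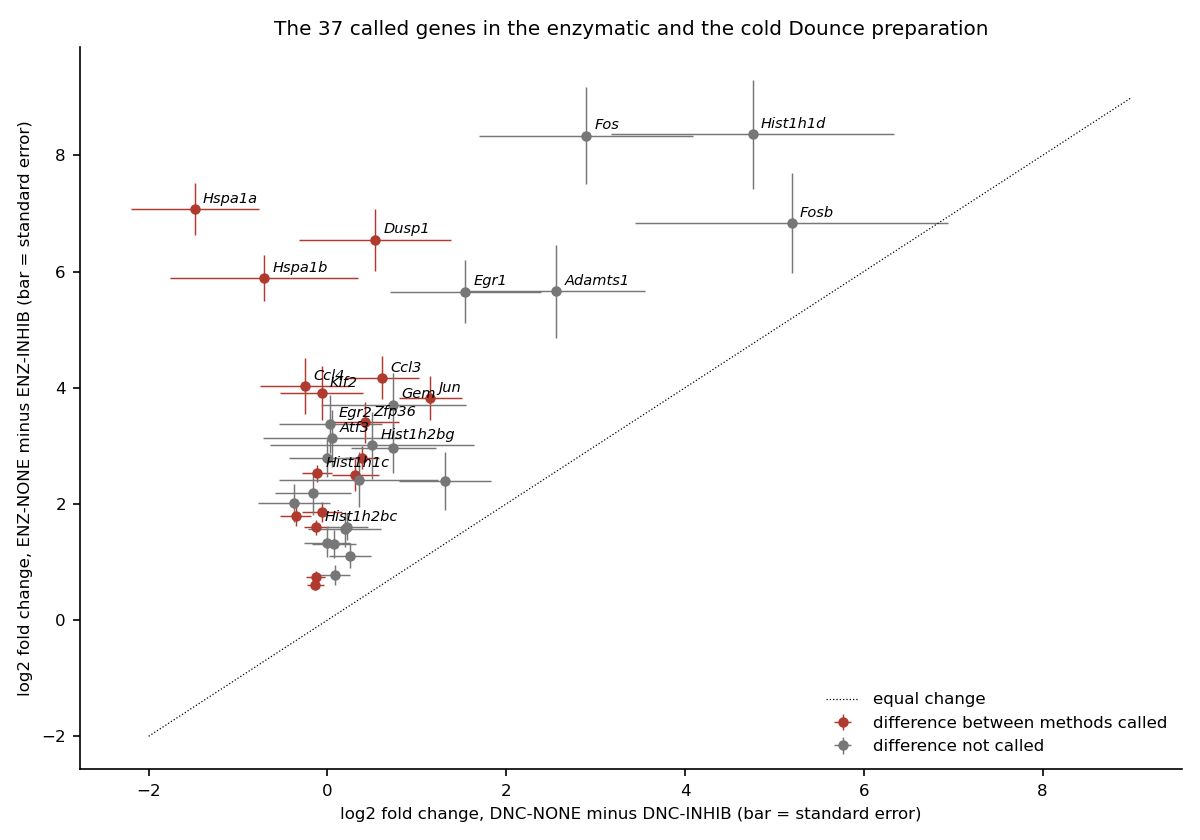
Log2 fold change without against with inhibitors after enzymatic digestion (vertical axis) and after cold Dounce homogenization (horizontal axis) for the 37 called genes; bars are standard errors, red marks genes whose difference between methods was called, and the dotted line is equal change. All 37 lie above the line, a place favoured by their selection for a rise after digestion, and Fos, Fosb and Hist1h1d have the widest horizontal bars.

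With inhibitors present in both, few genes were called between digested and homogenized cells. ENZ-INHIB against DNC-INHIB gave 1 gene higher and 14 lower of 9884 by edgeR. None of the 37 was among these 15, which says little about the 37 when so few of all genes were called. At unadjusted p under 0.05, 358 genes were higher and 475 lower, more than the 316 and 200 of ENZ-NONE against ENZ-INHIB. Over the 37, log2 fold changes in that comparison ran from -1.21 to 1.82 with a median of -0.15. The ENZ-INHIB libraries serve in both comparisons, so these values are not independent of those above.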

How the data were processed

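Single-cell libraries were made by the authors with a 10X Genomics 3′ version 2 kit, and the deposited files hold UMI counts per gene and barcode. The submitters' processing notes name Cell Ranger 3.0.0 and the build mm10 (GRCm38). Cells were filtered as given above. No doublet caller was run; an alternative left out cells with at least 2 UMIs of another cell type's markers. Counts were summed per library and fitted with edgeR 4.0.16 (TMM, filterByExpr, quasi-likelihood F test, 12 libraries in 4 groups) in R 4.3.3, with DESeq2 1.42.0 as an alternative; standard errors are the log2 fold change over the root of F. Each library is 1 animal. CPM is a gene's UMIs per 1000000 kept UMIs of the library. Sums alone cannot tell fewer cells with a transcript from less of it per cell, so shares of cells are given too. Exact permutation tests and Clopper-Pearson intervals used scipy 1.17.1. Scripts were tested on simulated data. Gene positions, exons and 3′ ends come from GENCODE M21 (GRCm38), which held 30934 of the 31053 gene IDs. Of the 37 called genes, 13 overlap another annotated gene, 5 of them on the same strand. Named genes were called genes, fixed anchors, the 5 lower genes and the 5 genes of the method difference with the smallest p, and up to 4 leading members of each list; Sat1, Kctd12, Hist1h2ac, Ngp, Camp, S100a8, Fosl2, Batf, Batf3 and Mafk were added after their values were seen. Some genes that this rule names are not reported here. The comparison, members and lists were chosen with earlier results of these data known.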

Additional observations from a re-analysis of the deposited data

Results flagged for a closer look

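In 17 genes the inhibitor effect after enzymatic digestion differed from that after cold homogenization by edgeR's quasi-likelihood test of the difference (3 libraries in each of 4 groups). For 16 of them the differences, on the log2 scale, were 2.65 for Hist1h1c, 8.56 for Hspa1a, 1.72 for Hist1h2bc, 2.15 for Hsp90aa1, 2.41 for Jund, 1.93 for Rgs1, 3.56 for Ccl3, 4.28 for Ccl4, 3.97 for Klf2, 2.18 for Junb, 2.98 for Zfp36, 0.74 for Rhob, 2.68 for Jun, 6.02 for Dusp1, 6.60 for Hspa1b and 1.21 for Hsp90ab1. Adjusted p ran from 8.42e-06 for Hist1h1c to 0.0359 for Hsp90ab1. For Hspa1a, Hspa1b, Hsp90aa1 and Hsp90ab1 the estimate after cold homogenization was below 0, at -1.49, -0.71, -0.35 and -0.48 log2, so part of their difference comes from that side. None of those 4 values was called in its own comparison.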

How the results depend on the processing

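The count of 37 higher and 0 lower genes was 142 (128 higher, 14 lower) with no low-count filter and 70 (69 higher, 1 lower) in a fit of the 6 enzymatic libraries with batch as a covariate. Other settings gave 28 to 49 calls, all higher. Leaving out 1 library at a time gave between 29 and 56 calls, 56 without ENZ-NONE replicate 5 and 29 without any 1 of the ENZ-INHIB libraries, with at most 1 lower gene. Of the 37 genes, 26 were called in all 12 of these fits, and those lost in 2 or more included Ier5, Klf6, Nfkbid, Neat1, Zfp36l1, Gm26532, Rhob, Hist1h1e, Hist1h2bg and Hist2h2aa1. DESeq2 gave no adjusted p for Fos (log2 8.34). The 17 genes of the method difference became 73 with no low-count filter and 6 to 19 when 1 library was left out; the cause was not tested. Fold changes of genes that were not called took the other sign for Tmem119 (0.049 without ENZ-NONE replicate 6, 0.030 without ENZ-INHIB replicate 3, range -0.071 to 0.049), P2ry12 (range -0.097 to 0.12) and Cx3cr1 (range -0.096 to 0.052), both highest without ENZ-NONE replicate 6. Shares of cells with Fos or Hspa1a moved by less than their spread under every alternative, and without 1 library differed by between 14.4 and 26.9 points for Fos and between 26.48 and 34.98 for Hspa1a. No paired analysis was possible because ENZ-NONE carries replicate numbers 4 to 6 and ENZ-INHIB 1 to 3, so the groups share none. With 3 animals a group and at most 2729825 kept UMIs per library, small changes in genes of a few CPM may have been missed.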

Other observations

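Among lists not described above, the circadian clock genes had 8 of 9 tested members below 0 in ENZ-NONE against ENZ-INHIB, with a median of -0.19 log2, 0 calls by edgeR and 1 member higher at unadjusted p under 0.05. Glucocorticoid-responsive genes had 6 of 6 above 0 with a median of 0.37 log2 and 0 calls, and 3 were higher at unadjusted p under 0.05. Per1, which sits in both lists, is the one clock gene above 0. Shares over all genes tested were 0.374% called, and 3.2% higher and 2.02% lower at unadjusted p under 0.05. The BCL2 family (10 tested), hypoxia and glycolysis genes (8) and oxidative stress and iron genes (9) gave 0 calls by edgeR, with 1 member of each higher and, in the BCL2 family, 1 lower at unadjusted p under 0.05.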
